A study of Mus musculus with 16 samples.

Results

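The genes described here are the mouse Hox cluster genes, taken as every gene whose symbol is Hoxa, Hoxb, Hoxc or Hoxd followed only by a number. There were 39 of them among the 48440 genes in the tables: 11 in the Hoxa cluster on chromosome 6, 10 in the Hoxb cluster on chromosome 11, 9 in the Hoxc cluster on chromosome 15 and 9 in the Hoxd cluster on chromosome 2. They were followed in RNA-Seq libraries of Lgr5-EGFP+ cells, the stem and progenitor cells of the intestinal crypt, sorted for GFP from segments of 6 cm of duodenum, jejunum and ileum. All donors were female Lgr5eGFP mice, in which EGFP is driven from the Lgr5 gene, made obese on a 60% fat diet for 16 weeks and given as 8 to 16 weeks old. They then underwent vertical sleeve gastrectomy (VSG, removal of most of the stomach along its greater curvature) or a sham operation, and cells were taken 4 weeks later, 15 minutes after a liquid mixed meal. Duodenum and jejunum each had 4 VSG and 2 sham libraries, and ileum had 2 VSG and 2 sham libraries, 16 libraries from 7 mice. A replicate number marks 1 mouse within its surgery group across the segments, and the sort excluded cells bearing CD45 (immune) or CD31 (endothelial) together with dead and apoptotic cells.

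Hox genes encode homeodomain transcription factors that give cells their position along the body axis. Each cluster is read in order. Genes with low numbers lie toward one end and act anterior, and genes with high numbers lie toward the other end and act posterior. Paralogues (genes of the same number in different clusters) share an ancestor. In the gut, Hox genes pattern the tube in the embryo and are expressed in the mesenchyme as well as in the epithelium, with Cdx1 and Cdx2 among the regulators above them.

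In these data the duodenal and jejunal cells carried low, scattered signal from many Hoxa and anterior Hoxb genes, and the ileal cells carried high signal from Hoxb3 to Hoxb9. A library labelled jejunum, that of VSG replicate 1 (mouse A12), held Hoxb4 to Hoxb9 within or above the ileal range. No Hox gene passed the thresholds for VSG against sham in any segment.

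Of the members, 22 of 39 matched the RefSeq promoter table (GRCm38.p6), among them 10 of the 17 genes whose mean was above 10 over all libraries. The 250 bases before the annotated start are shown for 4 of these, Hoxa5 and Hoxa7 from the cluster that was low in ileum and Hoxb4 and Hoxb8 from the cluster that was high there, so that the regulatory letters of genes with opposite patterns can be compared. They lie at chr6:52204588-52204837 (Hoxa5, minus strand), chr6:52218574-52218823 (Hoxa7, minus strand), chr11:96318017-96318266 (Hoxb4, plus strand) and chr11:96281655-96281904 (Hoxb8, plus strand), each is read 5′ to 3′ along its gene, and capitals mark the letters TTTAT or, on the other strand, ATAAA, the core of the motif bound by Cdx proteins.
Hoxa5: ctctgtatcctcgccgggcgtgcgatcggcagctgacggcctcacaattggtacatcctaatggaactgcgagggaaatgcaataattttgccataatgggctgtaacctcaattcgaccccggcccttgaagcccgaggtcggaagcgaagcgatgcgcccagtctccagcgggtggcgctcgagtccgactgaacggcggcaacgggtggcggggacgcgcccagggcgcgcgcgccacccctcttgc
Hoxa7: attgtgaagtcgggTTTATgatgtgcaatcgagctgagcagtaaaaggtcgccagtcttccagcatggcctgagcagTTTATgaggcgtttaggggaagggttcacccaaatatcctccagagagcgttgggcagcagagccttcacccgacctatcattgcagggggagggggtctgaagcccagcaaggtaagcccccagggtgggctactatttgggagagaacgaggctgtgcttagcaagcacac
Hoxb4: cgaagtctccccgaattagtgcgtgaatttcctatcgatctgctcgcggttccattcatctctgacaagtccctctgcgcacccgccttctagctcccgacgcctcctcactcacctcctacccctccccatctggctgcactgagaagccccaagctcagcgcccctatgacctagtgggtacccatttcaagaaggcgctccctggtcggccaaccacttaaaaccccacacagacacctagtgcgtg
Hoxb8: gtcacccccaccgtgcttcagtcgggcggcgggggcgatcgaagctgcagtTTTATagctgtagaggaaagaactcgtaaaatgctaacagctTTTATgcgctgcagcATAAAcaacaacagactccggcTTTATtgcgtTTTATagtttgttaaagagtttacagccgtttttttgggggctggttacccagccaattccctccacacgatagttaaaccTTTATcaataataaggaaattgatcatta
The Hoxb8 stretch held 6 such matches, a number reached by 0.393% of all 32851 promoters of the same length, while Hoxa7 held 2 and Hoxa5 and Hoxb4 held none. At least 1 match was present in 37.3% of all promoters and in 9 of the 24 promoters listed for the 22 members (37.5%), and the letters overlap with those of the TATA box where an A follows. With both strands searched, the longer TTTATG was in 10.8% of all promoters and in 5 of 24 member promoters. The HOX-PBX motif TGATNNAT was in 7.68% of all promoters and in 4 of 24, Hoxb8 among them, and the retinoic acid receptor core site AGGTCA was in 14.02% and in 6 of 24, Hoxb4 among them. Hoxa4, Hoxb2, Hoxb3, Hoxb5, Hoxb6, Hoxb7 and Hoxb9 were not in the promoter table. These matches are letters in the reference and were not tested as binding sites.

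Values were deposited as DESeq2-normalized counts, scaled separately in each segment. Where libraries of different segments are set side by side below, the values were rescaled jointly by the median of ratios over 7291 genes above 0 in all 16 libraries and are called scaled counts. Because the 3 tables were normalized apart, differences between segments are a description with no p-value. The smallest step in each library implied a depth of about 10862000 to 63611000 reads, and a count of 3 reads corresponded to 1.51 to 10.4 scaled counts, highest in ileal sham replicate 2. The 5 epithelial markers (Epcam, Cdh1, Krt8, Krt18 and Vil1) summed to between 172306 and 436795 scaled counts, whereas the summed stem cell markers (Lgr5, Ascl2, Olfm4, Smoc2 and Axin2) ran from 35496 to 78758 scaled counts in duodenum and from 8236 to 18225 in ileum. Lgr5 itself, the gene of the sort, was listed at 0 in at least 1 jejunal and 1 ileal library.

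The library labelled jejunal VSG replicate 1 stood apart in regional markers before any Hox gene was considered. Fabp6, the ileal bile acid-binding protein, was at 191139 scaled counts there, against a range of 15.5 to 285 over the remaining 5 libraries of jejunum and 47861 to 347560 in ileum. Slc10a2, the apical bile acid transporter, was at 5712, against 0 to 144 over the remaining jejunum and 4810 to 35158 in ileum. Gata4, a proximal factor, was at 313, against 4507 to 6247 over the remaining jejunum and 0 to 1657 in ileum, and Onecut2 was listed at 0 as in every ileal library. Osr2, a distal marker, went with the jejunum instead, at 3556 against 1983 to 3720 over the remaining jejunum and 3991 to 7169 in ileum. Values for jejunum are therefore given for this library and for the other 5 jejunal libraries apart. In the duodenal library of the same mouse the 5 proximal markers summed to 12881, the lowest of the 6 duodenal sums (up to 27431), against 5672 to 8388 over the remaining jejunum 1759 to 15975 in ileum and 1232 in its own jejunal library, and this mouse had no ileal library.

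A member was called detected in a segment where its mean normalized count was above 10. By that rule 12 of 39 were detected in duodenum, 15 in jejunum and 13 in ileum, and 21 in at least 1 segment: 8 Hoxa, 9 Hoxb, 1 Hoxc and 3 Hoxd genes. Over all genes, 34.8%, 32.7% and 28.6% were detected in the 3 segments. Without jejunal VSG replicate 1 the jejunal number fell to 10 with the loss of Hoxa7, Hoxb6, Hoxb7, Hoxb8 and Hoxd4, and without the shallow ileal sham replicate 2 the ileal number was 12. Only 117 of the 624 member values (18.75%) were above 0, and these were seldom at the edge of detection, with a median of 66 reads' worth and 9 under 5 reads. Ileal Hoxb values were above 0 in 27 of 40 cases (67.5%) and duodenal Hoxa values in 26 of 66 (39.4%). The median number of member genes above 0 in a library was 7.5 in duodenum, 6.5 in jejunum and 8 in ileum.

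Members listed at 0 in every library included Hoxa13, Hoxc4, Hoxc5, Hoxc6, Hoxc10, Hoxc11, Hoxc12, Hoxc13, Hoxd1, Hoxd9, Hoxd11 and Hoxd13. They include 3 of the 4 members with number 13, which act at the posterior end of the body. The fourth, Hoxb13, was at 67.1 scaled counts in jejunal sham replicate 1 alone. Hoxc8 was above 0 in ileal sham replicate 2 alone (86.5), Hoxc9 in duodenal VSG replicate 3 alone (15.6), Hoxd8 in ileal VSG replicate 5 alone (123), Hoxd10 in jejunal VSG replicate 1 alone (52.7) and Hoxd12 in jejunal sham replicate 2 alone (13.7). Hoxa6, Hoxa10 and Hoxb1 were above 0 in 1, 3 and 3 libraries and had means below 10 over all libraries.

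**Figure D1:**
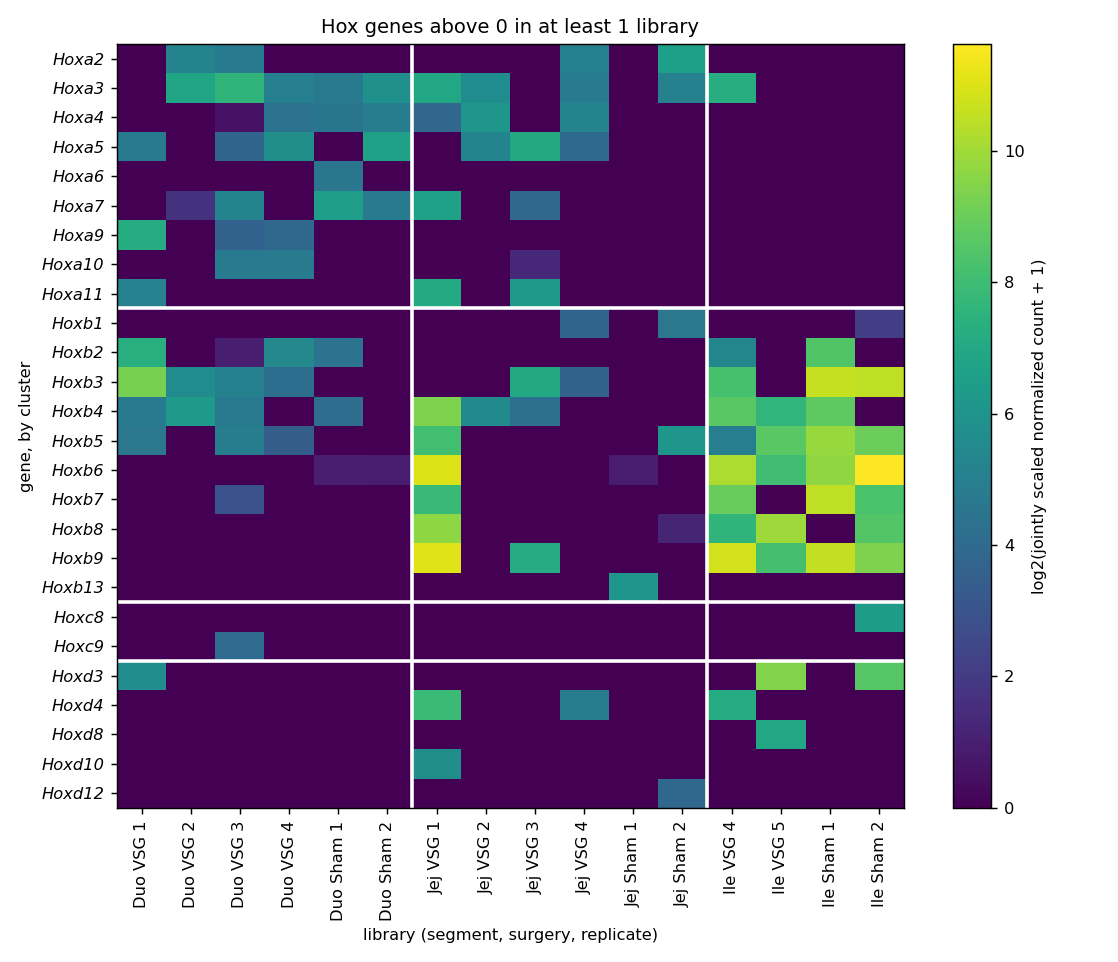
Colours show log2 of the scaled count plus 1 for the 26 Hox genes above 0 in at least 1 library, with genes in rows by cluster and the 16 libraries in columns by segment, surgery and replicate. Signal in duodenum is scattered over Hoxa and anterior Hoxb genes, and the bright block of Hoxb3 to Hoxb9 lies in the ileal libraries. In jejunal VSG replicate 1 the block runs from Hoxb4 to Hoxb9, and Hoxb3 is at 0 there and in ileal VSG replicate 5.

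In the Hoxa cluster, 7 genes had a mean above 10 scaled counts over all libraries: Hoxa2, Hoxa3, Hoxa4, Hoxa5, Hoxa7, Hoxa9 and Hoxa11. The only one with a mean above 50 was Hoxa3 (chr6:52169062-52213336, ENSMUSG00000079560), an anterior gene that also acts in the pharyngeal arches. In duodenum it ran from 0 to 196 scaled counts with a median of 43.2 and was above 0 in 5 of 6 libraries. In jejunum it was at 121 in VSG replicate 1, 49.97, 0 and 25.8 in VSG replicates 2, 3 and 4, and 0 and 33.4 in the shams. In ileum it was at 152 in VSG replicate 4 and at 0 in the other 3 libraries. The segments overlapped, and the mean was 70.5 ± 73.1 (SD, n = 6) in duodenum and 37.9 ± 75.9 (SD, n = 4) in ileum. The other 6 Hoxa genes, Hoxa2, Hoxa4, Hoxa5, Hoxa7, Hoxa9 and Hoxa11, were listed at 0 in all 4 ileal libraries and above 0 in 1 to 4 of the 6 duodenal libraries. In summed signal the Hoxa cluster gave 146 to 311 scaled counts in duodenum, 0 to 225 in the other 5 jejunal libraries, 371 in jejunal VSG replicate 1, and 152, 0, 0 and 0 in ileum. On the log2 scale of the scaled count plus 1, all 7 Hoxa genes were lower in ileum than in duodenum, by a median difference of -2.45 (range -3.49 to -0.86). Hoxa9 was above 0 in duodenum alone, so it passed the filter only through duodenum and its direction was fixed. Without duodenal VSG replicate 1, 6 Hoxa genes passed and 5 were lower. Hoxa11 was above 0 in that duodenal library alone, at 34.5 scaled counts. The median of all 16269 genes with a mean above 10 was itself -0.88, with 30.6% of genes higher in ileum, so Hoxa11 at -0.86 was no lower than the typical gene. Because each of these genes was listed at 0 in at least 1 duodenal library, none had every ileal library below every duodenal library (0 of 17 members, where 10.4% of all genes did).

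In the Hoxb cluster, 8 genes (Hoxb2 to Hoxb9) had a mean above 10. All 8 were higher in ileum than in duodenum, with a median difference of 6.21 on the log2 scale (range 0.42 to 9.74). The mean that selected them covers all libraries. Hoxb6 to Hoxb9, with duodenal means of 0 to 1.09 scaled counts, passed only through ileum and jejunal VSG replicate 1. The filter itself thus favoured a higher ileal level for them, and the count of 8 is a description. With the tables left as deposited 7 of 8 were higher, Hoxb2 being the exception. It was also 7 of 8 without duodenal VSG replicate 2, duodenal sham replicate 2, ileal VSG replicate 4 or ileal sham replicate 1. The differences of genes listed at 0 in duodenum depend on the pseudocount of 1, so their levels are given first.

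Hoxb6 (chr11:96292476-96301569, ENSMUSG00000000690), in the posterior part of the cluster, was among the genes with the widest separation. In ileum it was at 1183 and 266 scaled counts in VSG replicates 4 and 5 and at 835 and 3173 in sham replicates 1 and 2. In duodenum it ran from 0 to 0.971, below the worth of 3 reads, with a median of 0. In jejunum it was at 2099 in VSG replicate 1, 0 in VSG replicates 2, 3 and 4, and 0.906 and 0 in the shams. Every ileal library was above every duodenal and every other jejunal library, and jejunal VSG replicate 1 lay inside the ileal range. The log2 difference between ileum and duodenum was 9.58.

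Hoxb9 (chr11:96271457-96276595, ENSMUSG00000020875), the most posterior gene of the main run of the cluster, was at 1824 and 293 scaled counts in ileal VSG replicates 4 and 5 and at 1511 and 664 in ileal sham replicates 1 and 2. It was listed at 0 in all 6 duodenal libraries. In jejunum it was at 2107 in VSG replicate 1, 142 in VSG replicate 3 and 0 in the other 4. Again every ileal library was above every duodenal and every other jejunal library, and jejunal VSG replicate 1 was above the highest ileal library. The log2 difference between ileum and duodenum was 9.74, and no fold is given against a group listed at 0.

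Hoxb5 (chr11:96303336-96306121, ENSMUSG00000038700), which also acts in enteric neural crest, was at 30.2 and 399 scaled counts in ileal VSG replicates 4 and 5 and at 900.1 and 519 in ileal sham replicates 1 and 2. Duodenal libraries ran from 0 to 28.7 with a median of 4.83. In jejunum it was at 272 in VSG replicate 1, 67.7 in sham replicate 2 and 0 in the other 4. The ileal mean of 462 ± 359 (SD, n = 4) was 44.9 times the duodenal mean of 10.3 ± 12.9 (SD, n = 6). The ratio was 70.1 without duodenal VSG replicate 3 and 30.7 without ileal sham replicate 1. The lowest ileal library and the highest duodenal library were nearly equal.

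Hoxb7 (chr11:96286623-96290162, ENSMUSG00000038721) and Hoxb8 (chr11:96281905-96285315, ENSMUSG00000056648) lie between Hoxb6 and Hoxb9. Hoxb7 was at 487 and 0 in ileal VSG replicates 4 and 5 and at 1450 and 318 in ileal sham replicates 1 and 2. It ran from 0 to 6.55 in duodenum with a median of 0, and in jejunum it was at 227 in VSG replicate 1 and 0 in the other 5. Hoxb8, whose promoter above carried the 6 TTTAT matches, was at 197 and 976 in ileal VSG replicates 4 and 5 and at 0 and 364 in ileal sham replicates 1 and 2. It was listed at 0 in all duodenal libraries, and in jejunum it was at 806 in VSG replicate 1, 1.33 in sham replicate 2 and 0 in the other 4. Each of these genes was thus listed at 0 in 1 ileal library, and that library was a different one for each, so that the ileal and duodenal ranges overlapped.

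Hoxb3 and Hoxb4 sit in the anterior part of the cluster. Hoxb4 (chr11:96318267-96321638, ENSMUSG00000038692) was at 408 and 203 in ileal VSG replicates 4 and 5 and at 426 and 0 in ileal sham replicates 1 and 2. In duodenum it ran from 0 to 76.5 with a median of 20.6, and in jejunum it was at 671 in VSG replicate 1, 46.0 in VSG replicate 2, 18.6 in VSG replicate 3 and 0 in the other 3. Its ileal mean of 259 ± 200.4 (SD, n = 4) was 10.8 times the duodenal mean of 24.0 ± 28.2 (SD, n = 6). The ratio was 19.2 without duodenal VSG replicate 2 and 8.47 without ileal sham replicate 1.

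Hoxb3 (chr11:96323326-96347930, ENSMUSG00000048763) had the highest duodenal mean of the members, through VSG replicate 1. It was at 603 scaled counts in duodenal VSG replicate 1, 48.3, 34.0 and 17.3 in VSG replicates 2, 3 and 4, and 0 in both shams. In jejunum it was at 0 in VSG replicates 1 and 2, 131 in VSG replicate 3, 11.2 in VSG replicate 4 and 0 in both shams. In ileum it was at 304 and 0 in VSG replicates 4 and 5 and at 1582 and 1470 in sham replicates 1 and 2. Jejunal VSG replicate 1 and ileal VSG replicate 5 were thus both at 0. The ileal mean of 839 ± 804 (SD, n = 4) was 7.16 times the duodenal mean of 117 ± 239 (SD, n = 6). Without duodenal VSG replicate 1 the duodenal mean was 19.9, below the 84.6 of Hoxa3, and the ratio was 42.1. Without ileal sham replicate 1 the ratio was 5.05. Hoxb2 was at 39.4, 0, 355 and 0 in the ileal libraries and ran from 0 to 157 in duodenum.

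Of the 17 members, 3 (Hoxb5, Hoxb6 and Hoxb9) had every ileal library above every duodenal library, where 4.58% of all genes did. The numbers are small, and 2 remained with each library scaled to the same total, with upper quartile scaling or with the tables as deposited, while 4 were found without ileal VSG replicate 5, sham replicate 1 or sham replicate 2. Hoxb6 and Hoxb9 also had every ileal library above the other 5 jejunal libraries, where 1.92% of all genes did. Both a duodenal and an ileal library were available for 3 mice. Hoxb3, Hoxb5, Hoxb6, Hoxb7 and Hoxb9 were higher in ileum in all 3, and Hoxb4 and Hoxb8 were higher in 2 of 3 and listed at 0 in both segments of the other.

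**Figure D2:**
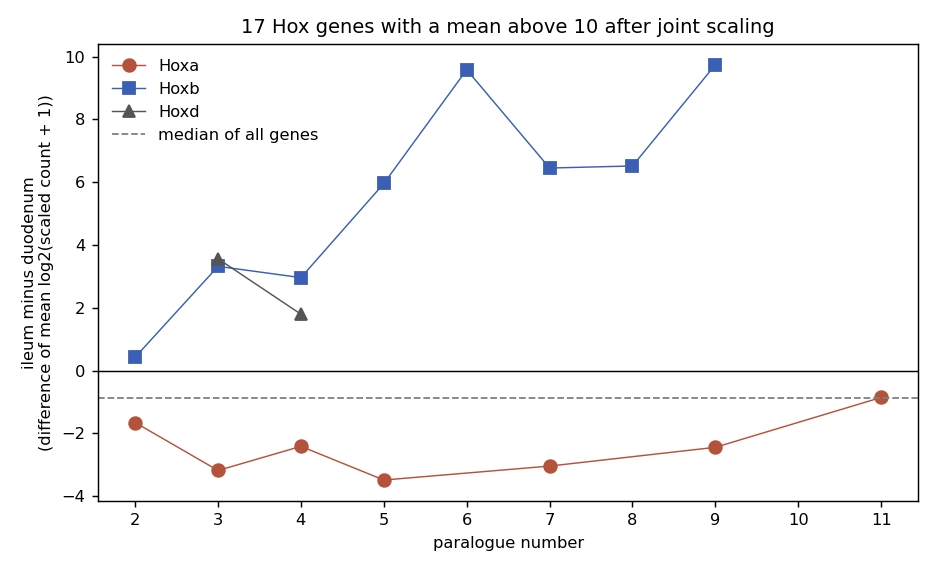
Points show, for the 17 Hox genes with a mean above 10 scaled counts, the ileal minus the duodenal mean of log2 of the scaled count plus 1 against the number of the gene in its cluster, with lines joining genes of a cluster. Hoxb genes lie between 0.42 at Hoxb2 and 9.74 at Hoxb9 without a steady rise, with Hoxb7 and Hoxb8 below Hoxb6, Hoxa genes all lie below 0, and the dashed line is the median of all genes at -0.88.

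In the Hoxd cluster, Hoxd3 (chr2:74711927-74748442, ENSMUSG00000079277) was at 0 and 695 scaled counts in ileal VSG replicates 4 and 5 and at 0 and 385 in ileal sham replicates 1 and 2. It was above 0 in 1 duodenal library, at 50.7 in VSG replicate 1, and in no jejunal library. Hoxd4 was at 144 in ileal VSG replicate 4, 240.0 in jejunal VSG replicate 1 and 29.6 in jejunal VSG replicate 4, and at 0 elsewhere. The annotated exons of Hoxd3 and Hoxd4 share 388 bases, so their values may not be independent. No Hoxc gene had a mean above 10.

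Summed over the cluster, Hoxb signal separated ileum from the rest. It was at 4472 and 2136 scaled counts in ileal VSG replicates 4 and 5 and at 7058 and 6512 in ileal sham replicates 1 and 2. Duodenal sums ran from 0.914 to 810 with a median of 82.5, and those of the other 5 jejunal libraries from 23.9 to 292 with a median of 68.0. Jejunal VSG replicate 1 was at 6182, inside the ileal range. The highest duodenal sum was that of VSG replicate 1, of which Hoxb3 gave 603. The posterior genes Hoxb6 to Hoxb9 made up 52.0% to 77.4% of all Hox signal in ileum and 76.5% in jejunal VSG replicate 1, while they gave 0% to 27.5% over the remaining jejunum and 0% to 1.56% in duodenum.

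**Figure D3:**
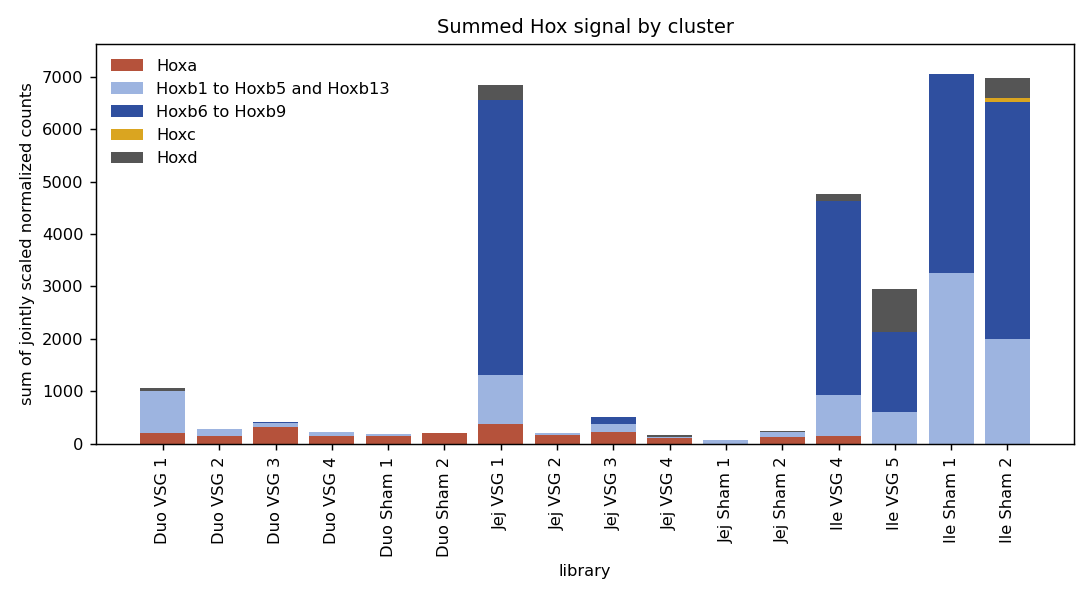
Stacked bars give the summed scaled counts of the Hoxa, Hoxb, Hoxc and Hoxd genes in each of the 16 libraries, with Hoxb6 to Hoxb9 apart from the other Hoxb genes. The ileal bars reach 2954 to 7058 and jejunal VSG replicate 1 reaches 6845, while the other duodenal and jejunal bars end between 68.0 and 1065.

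Per kilobase of median transcript length, the order of the ileal levels was Hoxb6 at 831 ± 769, Hoxb7 at 679 ± 752, Hoxb3 at 657 ± 630, Hoxb9 at 443 ± 295, Hoxb8 at 337 ± 370, Hoxb5 at 197 ± 153, Hoxd3 at 115 ± 143 and Hoxb4 at 101 ± 78.1 scaled counts per kb (SD, n = 4). Each neighbour in this order lay within 1 SD of the next, so the order among them is not resolved. In duodenum the highest level per kilobase was that of Hoxb3, at 91.7 ± 187 (SD, n = 6), followed by Hoxa3 at 39.0 ± 40.4. Without duodenal VSG replicate 1 the order turned, with Hoxb3 at 15.6 and Hoxa3 at 46.8. Since these are bulk RNA-Seq values, fewer cells expressing a gene and less RNA per cell cannot be told apart.

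Jejunal VSG replicate 1 was the highest of the 6 jejunal libraries for 10 of the 17 members: Hoxa3, Hoxa7, Hoxa11, Hoxb4, Hoxb5, Hoxb6, Hoxb7, Hoxb8, Hoxb9 and Hoxd4. The mean that selected the 17 includes this library. Without it 16 were left, since Hoxa11 passed the filter only through this library. Of all genes, 19.1% were highest in this library, and each of the other 5 jejunal libraries was highest for 0 to 2 members. For 9 of the 17 (all of the above but Hoxa3) it was also above all 6 duodenal libraries, where 12.8% of all genes were. Within the ileal range were 5 of the 10 (Hoxa3 and Hoxb5 to Hoxb8), and Hoxb4, Hoxb9 and Hoxd4 were above every ileal library. The ileal ranges of Hoxa3, Hoxb7 and Hoxb8 began at 0, so a value within them says little. Hoxa3, at 121, was also within its duodenal range of 0 to 196. Hoxa7, at 98.5 scaled counts, and Hoxa11, at 138, were listed at 0 in ileum, and Hoxb3, listed at 0 in this library, was also at 0 in ileal VSG replicate 5. The library was thus above the other jejunal libraries in its posterior Hoxb genes and above every ileal library in Hoxa7 and Hoxa11. Markers of other cells were read in it as well. The 10 stromal markers summed to 950.2 scaled counts, against 215 to 594 over the remaining jejunum and 397 to 1934 in ileum, with Pdgfrb at 532 and Dcn at 206, while 5 of the 10 (Col1a1, Col1a2, Lum, Pdgfra and Acta2) were listed at 0 in it. The 10 immune markers summed to 1536, against 644 to 1044 and 5.82 to 1138, with Ptprc at 522. Of the immune markers, 5 were at 0 in every library, Cd8a, Cd79a, Itgax and Coro1a among them, and the part of these cells in the Hox values was not tested. In the other 5 jejunal libraries the only values of Hoxb6 to Hoxb9 above 0 were those of Hoxb9 in VSG replicate 3 (142), Hoxb8 in sham replicate 2 (1.33) and Hoxb6 in sham replicate 1 (0.906).

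**Figure D4:**
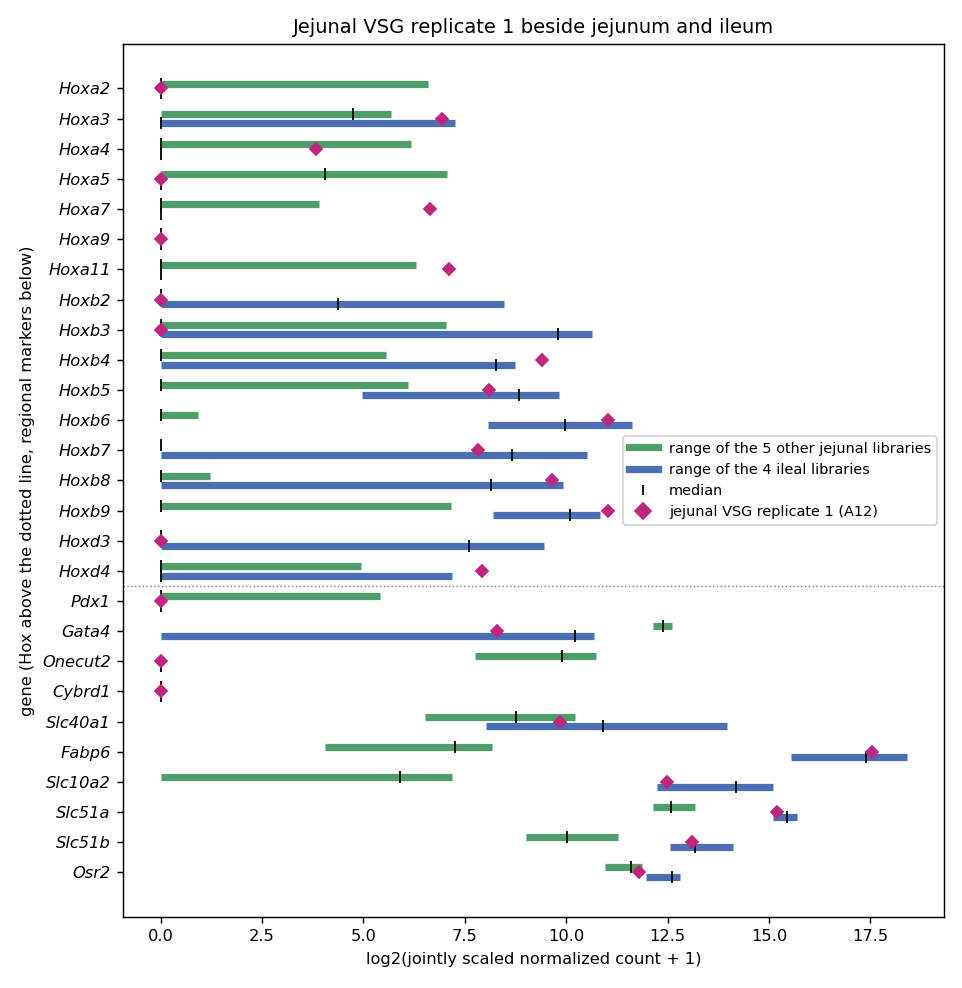
For each of 17 Hox genes and 10 regional markers the bars span the lowest to the highest log2 of the scaled count plus 1 in the 5 other jejunal libraries (green) and the 4 ileal libraries (blue), with ticks at the medians, and diamonds mark jejunal VSG replicate 1. The diamonds of Hoxb5 to Hoxb8 lie on the ileal bars and those of Fabp6, Slc10a2, Slc51a and Slc51b do so too, that of the distal marker Osr2 lies on the jejunal bar, and Hoxa2, Hoxb2, Hoxb3 and Hoxd3 are at 0.

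The comparison of VSG with sham asked whether the operation changed Hox expression within a segment. A gene was called where limma gave p under 0.05 and an adjusted p under 0.2, the mean normalized counts of the groups differed by more than 0.5 on the log2 scale, and the mean was above 50. None of the 12 members tested in duodenum, 15 in jejunum and 13 in ileum was called, where 0.0237%, 0.0126% and 0% of all genes were. At an unadjusted limma p under 0.05 there was 1 member in duodenum, Hoxb3, and 0 in jejunum and ileum, where 6.27%, 6.04% and 3.28% of all genes passed. In ileum, 455 genes had an unadjusted p under 0.05 and none an adjusted p under 0.2 with the other thresholds. The median log2 fold change of the members tested was 1.75 in duodenum, 2.65 in jejunum and -0.43 in ileum, beside 0.0086, 0.11 and 0.24 over all genes, and 9 of 12, 12 of 15 and 6 of 13 were above 0. The ileal median was -1.75 without VSG replicate 4 and 0.18 without VSG replicate 5. Both shams, the smaller group in duodenum and jejunum, were listed at 0 for 6 of 12 members in duodenum, 9 of 15 in jejunum and 3 of 13 in ileum. A sparse member has more libraries through which to pass the filter on the mean in the larger group. In jejunum Hoxa7, Hoxb6, Hoxb7, Hoxb8 and Hoxd4 were tested only through VSG replicate 1. No conclusion is therefore drawn from the positive medians in duodenum and jejunum.

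On the scale of each segment's deposited normalized counts, duodenal Hoxb3 was at 838, 70.4, 49.7 and 25.7 in VSG replicates 1 to 4 and at 0 in both shams. All 4 VSG libraries were above both shams, and the log2 fold change was 6.57 (SE 1.90), with a limma p of 0.00675 and an adjusted p of 0.517 by limma. The exact two-sided permutation test gave p = 0.0667, the smallest that 4 against 2 allows. Because the shams were listed at 0 the fold change rests on the pseudocount, and it was 3.46 with a pseudocount of 10. Duodenal Hoxa4, an anterior gene, was at 0, 0, 0.737 and 30.8 in VSG and at 33.3 and 43.0 in sham, so that the groups did not overlap. Its log2 fold change was -3.83 (SE 2.15), with an adjusted p of 0.860 by limma and an exact permutation p of 0.133. Groups without overlap were found for 14.4% of all duodenal genes, against these 2 of 12 members. In the same libraries the 10 stromal markers summed to 293 to 793 normalized counts after VSG and 664 to 2603 after sham, with none at 0 throughout. The 10 immune markers summed to 452 to 2829 after VSG and 156 to 306 after sham, with 6 of them at 0 throughout, Cd3e, Cd8a, Cd79a, Itgax and Coro1a included, and their highest sum was in VSG replicate 1, the library with the highest Hoxb3. The part of these cells in the Hox values was not tested.

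In jejunum no member separated the groups, where 12.8% of all genes did. Hoxb9 had the highest mean there and was at 2171, 0, 144 and 0 normalized counts in VSG replicates 1 to 4 and at 0 in both shams. Its log2 fold change was 4.57 (SE 3.36), with an adjusted p of 0.760 by limma and an exact permutation p of 0.467. The mean rested on VSG replicate 1, without which the log2 fold change was 2.39 and 10 members were left to test.

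In ileum 2 of 13 members, Hoxb3 and Hoxb5, were lower in both VSG than in both sham libraries, where 11.6% of all genes were lower and 28.6% did not overlap in either direction. Hoxb3 was at 187 and 0 normalized counts in VSG and at 950.3 and 880.3 in sham, a log2 fold change of -6.06 (SE 2.91, adjusted p = 0.736 by limma). Hoxb5 was at 18.5 and 243 in VSG and at 541 and 311 in sham, a log2 fold change of -2.58 (SE 1.88, adjusted p = 0.736 by limma) that was -0.75 without VSG replicate 4 and -4.40 without VSG replicate 5. For both the exact permutation p was 0.333, the smallest that 2 against 2 allows. Hoxb6, the gene with the highest ileal mean, was at 726 and 162 in VSG and at 501 and 1900.1 in sham, and these overlapped (log2 fold change -1.51, SE 1.19, adjusted p = 0.736 by limma, exact permutation p = 0.667). Without VSG replicate 4, VSG replicate 5, sham replicate 1 or sham replicate 2 the Hoxb6 log2 fold change was -2.58, -0.43, -2.47 or -0.55. Fabp6 and Slc10a2, the ileal markers, had log2 fold changes of -1.87 (SE 0.49) and -1.88 (SE 0.55), each with an adjusted p of 0.736 by limma, and the 5 distal markers summed to 60684 and 110743 normalized counts in VSG against 197966 and 270137 in sham. In the same libraries the stromal markers summed to 242 to 415 after VSG and 657 to 1162 after sham, with Lum and Pdgfra at 0, and the immune markers to 351 to 693 and 3.49 to 123, with 6 of 10 at 0. The part of these markers in the Hoxb values was not tested.

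**Figure D5:**
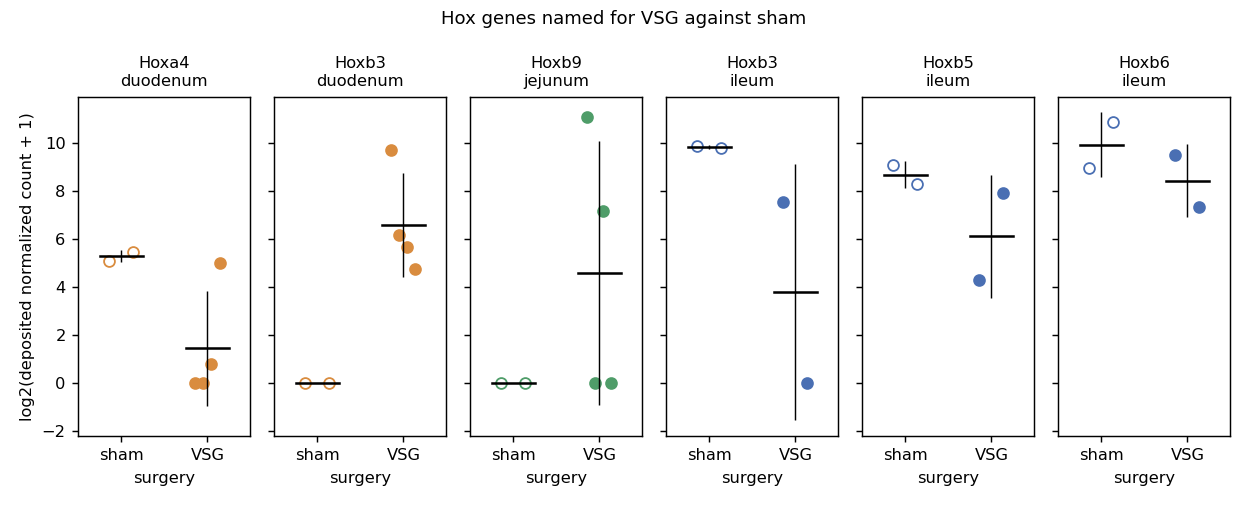
Points are log2 of the deposited normalized count plus 1 in each library for the Hox genes named in the comparison of VSG (filled) with sham (open), horizontal lines are group means and vertical lines are 1 SD. Hoxb3 was above both shams in all 4 duodenal VSG libraries and below both in the 2 ileal VSG libraries, Hoxa4 was below both shams in all 4 duodenal VSG libraries, and ileal Hoxb5 was below both shams in both VSG libraries.

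The difference between the jejunal and the duodenal library of the same mouse was compared between 4 VSG and 2 sham mice, which tests whether the effect of surgery differed between these segments. Of 8 members tested none had an adjusted p under 0.2, and none of 14718 genes did (0%). A single member, Hoxa4, had an unadjusted limma p under 0.05, where 4.1% of all genes did: the jejunal minus duodenal difference was higher after VSG by 7.66 on the log2 scale (SE 2.88, adjusted p = 0.948 by limma). Without VSG replicate 1, VSG replicate 2, sham replicate 1 or sham replicate 2 the unadjusted p was no longer under 0.05, with differences of 7.17, 6.39, 7.84 and 7.48.

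Genes that work with or above the Hox genes were described from lists, on the scale of the scaled count. Hox cofactors are TALE homeodomain proteins that bind DNA beside Hox proteins. Of 8 with a mean above 10, none had every ileal library above every duodenal library and 2 had every one below, Pbx3 (184 to 617 in duodenum, 0 in every ileal library) and Meis2 (25.1 to 803 in duodenum, 0 in every ileal library). Among the 3 ParaHox genes with a mean above 10, the sister cluster of Hox, Cdx2 was higher in ileum (8092 to 12110) than in duodenum (5690 to 6935), with 9514 in jejunal VSG replicate 1, and Pdx1, which specifies duodenum and pancreas, was at 395 to 1420 in duodenum and 0 in ileum. Of the 13 Polycomb genes, whose products repress Hox clusters, 2 were lower in ileum without overlap, Eed (1402 to 2559 in duodenum, 19.0 to 1131 in ileum) and Suz12 (1698 to 4824, and 0 to 1564), and none was higher. Of the 8 Trithorax genes, whose products keep Hox clusters active, 1 was lower, Wdr5 (1460 to 2516, and 241 to 1453), and none was higher. Of the 9 retinoic acid genes, the nuclear receptor Rxra was higher in ileum (6067 to 9108, against 2792 to 4236) and Rarb (11.7 to 122 in duodenum, 0 in every ileal library) and Rxrb (1489 to 2655, and 409 to 1432) were lower. The shares of all genes were 4.58% higher and 10.4% lower, and the general shift of -0.88 on the log2 scale applies to these lists also.

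For VSG against sham, 1 gene of these lists was called, Aldh1a1, which makes retinoic acid and was lower after VSG in duodenum (log2 fold change -2.48, SE 0.35, adjusted p = 0.196 by limma). The call was lost under 11 of 15 alternatives, with log2 fold changes of -2.75 to -2.36 and adjusted p of 0.0552 to 0.801 by limma over all 15. Its log2 fold changes of -2.33 in jejunum (SE 0.42, adjusted p = 0.404 by limma) and -1.27 in ileum (SE 0.42, adjusted p = 0.736 by limma) did not pass. Of 17 non-coding genes in and beside the clusters, 11 were at 0 in every library, the microRNA genes Mir10a, Mir10b, Mir196a-1, Mir196a-2, Mir196b and Mir615 among them, in libraries made from polyadenylated RNA. Hoxb3os, which overlaps Hoxb2 and Hoxb3 on the other strand, was at 319 scaled counts in jejunal VSG replicate 1, where Hoxb3 was listed at 0, at 0 in the other 5 jejunal libraries, and at 0 to 213 in ileum. Whether the counting used strand was not given in the sources used here, so reads of antisense partners cannot be told apart from those of Hoxa3 to Hoxa7, Hoxa11, Hoxb2, Hoxb3, Hoxb5, Hoxb6, Hoxd3, Hoxd4 and Hoxd8.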

How the data were processed

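RNA-Seq libraries (polyadenylated RNA, directional kit) were prepared from sorted Lgr5-EGFP+ cells. According to the methods and the submitters' processing notes, the authors mapped reads to mm10 with STAR 2.5.3a, quantified transcripts with Salmon 0.6.0 and normalized counts with DESeq2 within each segment, leaving out libraries of low mapping percentage. The deposited values are normalized counts (a signal without read totals), one table per segment. They are not whole reads: 34.5% to 47.8% of values above 0 were whole multiples of the smallest step in a library (tolerance 0.001 read), so no count model was run, and the depths given are implied by that step. Intervals were not computed, since reads are not known. No per-sample column was left unmapped, and no column of the authors' own comparisons was used.

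For VSG against sham, limma 3.58.1 (R 4.3.3) with a trend was run within each segment after a pseudocount of 1 and the log2 scale, keeping genes whose mean exceeded 10 (16867, 15857 and 13853 genes), with Benjamini-Hochberg adjustment over all of them. Single members were also tested by exact two-sided permutation. Fold changes are on the log2(value + 1) scale, which understates changes of low genes. For levels across segments, values were divided by median-of-ratios factors over 7291 genes (factors 0.599 to 1.50). The programs were tested on simulated data. Gene positions came from GENCODE M21 (GRCm38, the build of the files), to which 48058 of 48440 gene identifiers matched, and promoters from RefSeq (GRCm38.p6). Python 3.11.15, numpy 2.4.6, pandas 2.3.3 and scipy 1.17.1 were used. Itgam was listed on more than 1 row, and the row with the highest mean was used.

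Replicates are separate mice. Equal replicate numbers in VSG and sham mark different mice by the mouse named in each label, so the numbers were not taken to pair them. The deviations of same-numbered duodenal libraries correlated at -0.049 and -0.026. With 2 shams, the deviations of one mirror those of the other, so these correlations cannot decide on pairing. The members and gene lists were chosen with earlier results of these data known. Values per library are given for members with a mean above 50 scaled counts. For VSG against sham, named members are those with an unadjusted p under 0.05 or without overlap between groups, and the one with the highest mean in the segment. Genes of the lists were named by the same rules, up to 4 for a list, and Cdx2, the regional and cell type markers and Hoxb3os were named beside the results they touch. Some genes are not reported here. Alternatives were other pseudocounts, filters, scalings, limma without the trend, a replicate block and each library left out. Detection without jejunal VSG replicate 1 or ileal sham replicate 2 was added after seeing the data.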

Additional observations from a re-analysis of the deposited data

Results flagged for a closer look

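Within the VSG libraries of duodenum and jejunum, 26 gene and segment combinations of Hox genes were examined for a library far from the other 3 on the log2 scale, and 7 were marked by Dixon's criterion. Chance marks about 1 in 20 groups of normally distributed values, but a gene above 0 in only 1 of 4 libraries is always marked, as 6 of these were, and 14.3% of all duodenal and 14.6% of all jejunal genes were marked, so the marks are a description. In jejunal VSG replicate 1 these were Hoxb5 (280 normalized counts), Hoxb6 (2163), Hoxb7 (234) and Hoxb8 (830.2), each with the other 3 jejunal VSG libraries at 0. The remaining 3 were single values in other libraries: Hoxd3 at 70.4 in duodenal VSG replicate 1 with the other 3 at 0, Hoxa2 at 34.6 in jejunal VSG replicate 4 with the other 3 at 0, and Hoxa4 at 30.8 in duodenal VSG replicate 4 with the other 3 at 0 to 0.737.

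Hoxb3 had fold changes of opposite sign in 2 segments. Its log2 fold change after VSG was 6.57 in duodenum, where all 4 VSG libraries were above both shams, and -6.06 in ileum, where both VSG libraries were below both shams. The difference between duodenum and ileum was not tested, and neither fold change passed the adjusted threshold.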

How the results depend on the processing

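Under every alternative run, including the replicate block in duodenum and each library left out in turn, no Hox member was called for VSG against sham in any segment or for the jejunal minus duodenal difference. The replicate block pairs different mice. Its estimates rest on replicates 1 and 2 of each group, because VSG replicates 3 and 4 have no sham library of the same replicate. The number of members with an unadjusted limma p under 0.05 in duodenum was 2 with the replicate block (Hoxb3 and Hoxa4, log2 fold changes 7.94 and -5.28), against 1 without it, and the block left 0 genes called over all genes against 4. With a library left out in turn, that number ran from 1 to 2 in duodenum, 0 to 1 in jejunum, 0 to 3 in ileum and 0 to 1 for the jejunal minus duodenal difference. The cause was not tested. Among the named members, the unadjusted p came under 0.05 for Hoxa4 without duodenal VSG replicate 4 (log2 fold change -5.01) and for ileal Hoxb3 without VSG replicate 4 (-9.84) or VSG replicate 5 (-2.29), where the lone VSG library is assumed to vary like the shams. Counts of detected members by a mean above 50 in place of 10 were 3 in duodenum, 5 in jejunum and 10 in at least 1 segment, a stricter rule by construction. The median log2 fold change of the members was 0.99 in duodenum and 1.51 in jejunum with a pseudocount of 10, and -1.51 in ileum among genes with a mean above 50. Aldh1a1 passed the thresholds in jejunum without sham replicate 2 (-3.06) and in ileum without VSG replicate 5 (-1.60). The number of all genes called was unstable, at 259 without duodenal sham replicate 1, 2710 without jejunal sham replicate 2, 625 and 631 without ileal VSG replicates 4 and 5, and 43, 61 and 463 in duodenum, jejunum and ileum by limma without the trend. The median ileal minus duodenal difference over the members was 5.96 among genes with a mean above 50 and 0 without ileal VSG replicate 4, and those of Hoxb6 and Hoxb9 were 6.56 and 6.44 with a pseudocount of 10. The median of all genes between ileum and duodenum was -0.88, -1.06 with equal totals, -1.38 by upper quartile, -1.98 as deposited and -0.36 by quantile normalization. The Hoxa genes were lower under all of these (7 of 7, or 5 of 5 by quantile normalization). For 6 of the 7, listed at 0 in every ileal library, no scaling could give another direction. Within segments, equal totals moved the median of all genes from 0.11 to 0.34 in jejunum and from 0.24 to 0.35 in ileum. Depth limits the ileum most, where 3 reads correspond to as much as 10.4 scaled counts.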
